A study of Mus musculus with 16 samples.

Results

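The insulin-like growth factor (IGF) axis was followed in the mouse thyroid gland through 10 genes: the ligands *Igf1* and *Igf2*, the receptors *Igf1r* and *Igf2r*, and the binding proteins *Igfbp2*, *Igfbp3*, *Igfbp4*, *Igfbp5*, *Igfbp6* and *Igfbp7*. They were taken by symbol from a table of read counts with 25611 gene entries. All 10 were among the 16630 entries with enough counts to be tested.

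IGF1 and IGF2 signal through the receptor tyrosine kinase IGF1R, whereas IGF2R has no kinase activity and carries IGF2 to the lysosome for degradation. Binding proteins hold the ligands outside the cell, prolong their life and limit or direct their access to the receptor, and proteases that cut the binding proteins set the ligands free. In the thyroid, IGF1 acts together with thyroid stimulating hormone (TSH) to support growth and function of follicular cells, and a diet low in iodine raises TSH.

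RNA-Seq was performed on thyroid glands of 16 female mice of the labelled strain C57BL/6, 4 in each of 4 groups, which were 4 weeks old in the methods of the study (1 month in the sample labels). WT(ND) and *Glis3*-Pax8Cre(ND) mice were fed the NIH31 normal diet (ND), and the mice of WT(LID) and of *Glis3*-Pax8Cre(LID) received the Harlan TD.95125 low iodine diet (LID) for 6 days. By their labels, the genotype of the *Glis3*-Pax8Cre mice starts with B6;129, unlike their strain label, and holds the Glis3<tm2Amj> allele together with Pax8<tm1.1(cre)Mbu>. Cre expressed from the *Pax8* locus removes exon 5 of *Glis3* in follicular cells. GLIS3 is a Krüppel-like zinc finger transcription factor, and other cell types of the gland keep the gene.

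The libraries held 13892352 to 461077969 read pairs assigned to genes (median 69163432.5). The lowest was *Glis3*-Pax8Cre(ND) replicate 1 and the highest WT(ND) replicate 4, followed by *Glis3*-Pax8Cre(ND) replicate 2 at 156548225. Libraries of LID mice held 55451647 to 85741075. The methods of the study name NextSeq and NovaSeq sequencers without saying which libraries each read. The part of depth or sequencer was not tested. A fixed list of 10 follicular markers summed to 204320 to 331403 CPM (counts relative to library size) in the 8 WT mice and 99314 to 186983 CPM in the 8 *Glis3*-Pax8Cre mice, so the label of the tissue held in every gland. *Tg* made up most of this sum, and of the 10 markers 2 were higher and 2 lower in *Glis3*-Pax8Cre mice on ND, and 5 higher and 3 lower under LID. Counts for the whole *Glis3* gene do not show the loss of 1 exon and were not lower without it, at 45.2 to 85.8 CPM in WT and 85.8 to 105 CPM in *Glis3*-Pax8Cre mice on ND, and at 125 to 174 and 119.5 to 204 CPM under LID. *Slc5a5*, the iodide transporter gene, separated the genotypes in every mouse, with 81.8 to 187 CPM (ND) and 1898 to 2178 CPM (LID) in WT mice and 8.43 to 20.2 CPM in the 8 *Glis3*-Pax8Cre mice. WT(ND) replicate 3 stood apart from its group. Of 1388 genes that differed between the genotypes in the 8 LID mice (adjusted p under 0.01, more than 2-fold, edgeR), 529 also differed more than 2-fold between the remaining ND mice. Over these 529, it lay at a median of 0.57 of the way from the other WT(ND) mice to the *Glis3*-Pax8Cre(ND) mice, and 58.2% of the genes were nearer to *Glis3*-Pax8Cre(ND), against 3.18% to 4.48% for the other 3 WT(ND) mice, each over 407 to 424 genes chosen in the same way without that mouse. Its *Pax8* level was 996 CPM, beside 374 to 397 CPM in the other WT(ND) mice and 643 to 989 CPM in *Glis3*-Pax8Cre(ND). *Glis3*-Pax8Cre(ND) replicate 4 had a summed level of 8 thymocyte markers of 2617 CPM, against at most 310 CPM in every other mouse. For the 10 IGF axis genes, values without WT(ND) replicate 3 or this mouse are given beside the results whose call changed without them. Genes of the other lists were not examined without single mice. The sum of 6 skeletal muscle markers also varied, from 1.64 to 1246 CPM. It was highest in *Glis3*-Pax8Cre(ND) replicate 1 (1246 CPM), WT(LID) replicate 3 (1004 CPM) and *Glis3*-Pax8Cre(LID) replicate 2 (834 CPM). The comparisons below share groups of mice, so their values for 1 gene are not independent of each other.

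All 10 genes were detected in all 16 glands, over a wide range of levels. Per kilobase of exon, *Igfbp7* was the highest in WT(ND) at 150 ± 22.1 CPM per kb (SD, n = 4), followed by *Igfbp3* at 96.8 ± 23.5 and *Igfbp5* at 65.7 ± 15.7 CPM per kb. The receptor genes were lower, with 8.85 ± 1.10 CPM per kb for *Igf1r* and 12.4 ± 1.93 for *Igf2r*. Among the ligands, *Igf1* had 10.3 ± 7.19 and *Igf2* 2.57 ± 0.581 CPM per kb. *Igfbp2* was the lowest at 0.0910 ± 0.0554 CPM per kb, from 4 to 99 read pairs in a mouse. *Igfbp1*, the remaining classical binding protein gene and no member of the set, had at most 3 read pairs in any gland, and the insulin genes *Ins1* and *Ins2* had at most 0 and 6. In the values below, which compare groups for 1 gene at a time, CPM is relative to the library size scaled by the TMM method of edgeR.

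**Figure D1:**
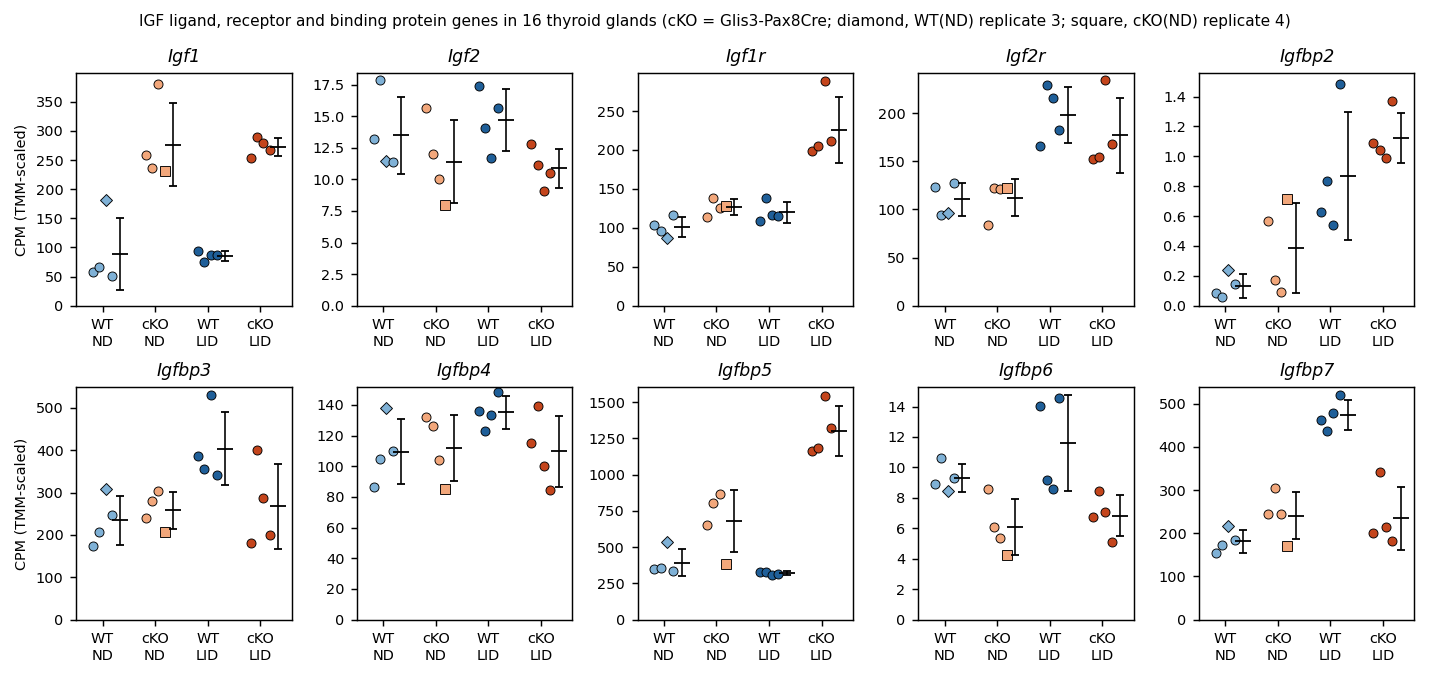
Level of each of the 10 genes in CPM (vertical axes, each starting at 0) in the 16 thyroid glands by group (horizontal axes; cKO is *Glis3*-Pax8Cre). Points are mice, bars beside them are the mean ± SD of 4 mice, the diamond is WT(ND) replicate 3 and the square is *Glis3*-Pax8Cre(ND) replicate 4. *Igf1* and *Igfbp5* lie highest in the *Glis3*-Pax8Cre groups, while *Igfbp7* lies highest in the 4 WT(LID) mice.

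The diet effect within each genotype, the genotype effect on each diet and their interaction were tested with edgeR's quasi-likelihood test over all 16630 genes, and a gene was called at a Benjamini-Hochberg adjusted p under 0.05. The LID raised 4 of the 10 genes in WT mice and lowered 0, where 41.7% of all genes tested were called, 20.9% higher and 20.8% lower. It raised 4 and lowered 0 in *Glis3*-Pax8Cre mice, where 25.4% of all genes were called, 13.1% higher and 12.3% lower. Between genotypes on ND, 2 of the 10 were higher in *Glis3*-Pax8Cre mice and 0 lower, beside 19.6% of all genes, 10.3% higher and 9.25% lower. Under LID, 3 were higher and 2 lower in *Glis3*-Pax8Cre mice, beside 30.2% of all genes, 14.9% higher and 15.4% lower. The effect of diet differed between genotypes for 3 of the 10, with 2 more positive and 1 more negative in *Glis3*-Pax8Cre mice, where 11.8% of all genes were called, 4.43% positive and 7.41% negative. At an unadjusted p under 0.05, 4, 4, 6, 7 and 4 of the 10 passed in these 5 comparisons, beside 49.2%, 38.3%, 33.7%, 40.3% and 26.6% of all genes. DESeq2 called 4, 4, 5, 6 and 3, beside 41.1%, 27.9%, 24.1%, 31.9% and 16.8%. With 10 genes, these shares are too coarse to set the family apart from the background, and the results below concern single genes.

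With the stricter thresholds of the study, an adjusted p under 0.01 and a change over 2-fold, the counts were 2 of 10 for the diet in WT mice (12.5% of all genes), 0 for the diet in *Glis3*-Pax8Cre mice (5.0%), 1 for the genotype on ND (4.15%), 3 for the genotype under LID (7.93%) and 1 for the interaction (3.63%). The median log2 fold change of the 10 genes was 0.31, 0.12, 0.23, -0.23 and -0.19 in these comparisons in the same order, and that of all genes lay between -0.03 and 0.02.

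**Figure D2:**
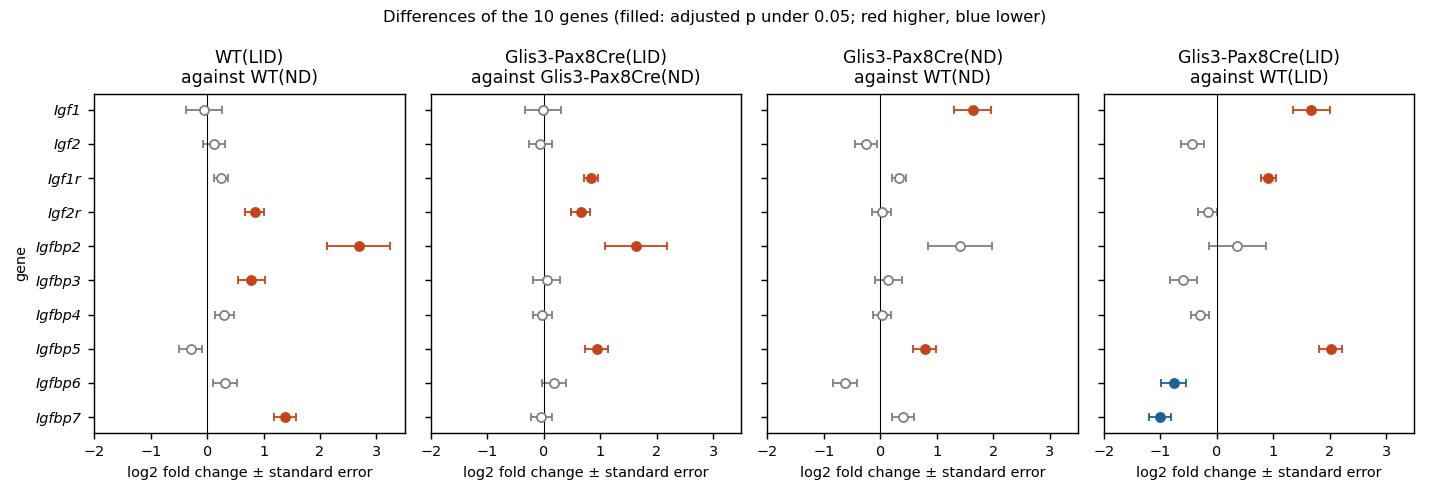
Log2 fold change ± standard error (horizontal axes) of the 10 genes (vertical axis) for the diet in each genotype and for the genotype on each diet, from 1 fit of 16 mice. Filled points passed an adjusted p under 0.05, red higher and blue lower, and open points did not. *Igf1* was higher in *Glis3*-Pax8Cre mice on both diets, at 1.64 and 1.67, and the largest genotype difference was that of *Igfbp5* under LID, at 2.01.

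*Igf1* (chr10:87858265-87937047 of mm10, plus strand), whose product is the main ligand of IGF1R, was higher in *Glis3*-Pax8Cre mice on both diets. On ND the 4 WT mice had 57.4, 66.3, 181 and 50.4 CPM and the *Glis3*-Pax8Cre mice 258, 236, 381 and 231 CPM. Under LID the WT mice had 94.7, 74.3, 86.5 and 86.7 CPM and the *Glis3*-Pax8Cre mice 254, 289.9, 280.0 and 267 CPM. Every *Glis3*-Pax8Cre mouse lay above every WT mouse on the same diet, and the highest WT value was that of WT(ND) replicate 3. On the log2 scale the difference was 1.64 ± 0.33 (SE) on ND and 1.67 ± 0.33 under LID, with adjusted p of 0.00349 and 0.00140 in edgeR's test. The difference between these effects was 0.03 ± 0.45 (adjusted p = 0.973, edgeR). It was -0.60 ± 0.22 without WT(ND) replicate 3 and -0.68 ± 0.21 without both ND mice that stood apart, and the latter passed (adjusted p = 0.0405, where the range over 26 alternatives was 0.0405 to 0.9999).

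The effect of the diet on *Igf1* in WT mice depended on WT(ND) replicate 3. With all mice it was -0.05 ± 0.32 (adjusted p = 0.912, edgeR). Without that mouse it was 0.57 ± 0.16 (adjusted p = 0.0113, edgeR, where the range over 27 alternatives was 0.00566 to 0.984), since the other WT(ND) mice lay below all 4 WT(LID) mice. The ND genotype effect was then 2.27 ± 0.17 on the log2 scale.

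Tissue macrophages are a known source of IGF1, and their markers moved with the ND difference. All 6 macrophage markers of a fixed list were called higher in *Glis3*-Pax8Cre(ND) than in WT(ND), with a summed level of 274 to 326 against 162 to 240.4 CPM, whereas 1 of 6 was called higher under LID, with 194 to 261 against 214 to 233 CPM. The ratio of *Igf1* to that sum was 0.302 to 0.755 in WT(ND) and 0.723 to 1.24 in *Glis3*-Pax8Cre(ND). On the LID it was 0.348 to 0.44 in WT and 1.07 to 1.38 in *Glis3*-Pax8Cre mice, and these ranges were apart. The part of macrophages in the *Igf1* difference was not tested. In whole glands, fewer cells of a type and less RNA per cell cannot be told apart.

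*Igf2* (chr7:142650768-142666816, minus strand), an imprinted growth factor gene of fetal life, stayed low in all groups. On ND its mean was 13.5 ± 3.05 CPM (SD, n = 4) in WT and 11.4 ± 3.26 CPM in *Glis3*-Pax8Cre mice, and under LID 14.7 ± 2.43 and 10.9 ± 1.55 CPM. The group ranges overlapped throughout. The largest difference, -0.43 ± 0.20 between genotypes under LID, did not pass (adjusted p = 0.112, edgeR). It passed with only the 8 mice compared (-0.44, adjusted p = 0.0340, edgeR) and with a replicate block in 16 mice (-0.44, adjusted p = 0.0453, edgeR). It was 0.11 with a fibroblast marker score as a covariate, the 1 of 27 alternatives in which its sign changed. Because 4 of the 8 fibroblast markers were themselves lower in *Glis3*-Pax8Cre mice under LID, that score cannot tell fibroblast content and genotype apart. *Igf2os* and *Mir483* overlap the span of *Igf2*, and reads of the overlap cannot be told apart because counting ignored strand. *Igf2os* had at most 0.565 CPM in any gland.

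Of the receptors, *Igf1r* (chr7:67952257-68233667, plus strand) rose under LID in *Glis3*-Pax8Cre mice. The 4 *Glis3*-Pax8Cre mice on ND had 114, 138, 125 and 128 CPM, and those under LID had 199, 205, 288 and 212 CPM. The WT mice had 103, 96.4, 87.3 and 117 CPM on ND and 109, 139, 116 and 115 CPM under LID. Only the *Glis3*-Pax8Cre(LID) group stood clear of the other 3 groups, which overlapped.

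The log2 change of *Igf1r* with the diet was 0.84 ± 0.13 in *Glis3*-Pax8Cre mice (adjusted p = 0.000252, edgeR) and 0.25 ± 0.12 in WT mice (adjusted p = 0.124). Between genotypes it was 0.91 ± 0.13 under LID (adjusted p = 5.71e-05) and 0.33 ± 0.12 on ND (adjusted p = 0.0780). The ND value passed without WT(ND) replicate 4 (0.41) and without *Glis3*-Pax8Cre(LID) replicate 3 (0.34), and the WT diet value passed without the latter mouse (0.25). The ND value also passed with DESeq2 (0.34, adjusted p = 0.0450) and with library size alone (0.45, adjusted p = 0.00551, edgeR). The difference in diet effect was 0.59 ± 0.18 (adjusted p = 0.0404, edgeR). It was positive in all 26 alternatives but missed the threshold in 13 of them, with adjusted p from 0.0128 to 0.0874. Of these 13, 11 left out 1 mouse, namely replicates 1, 2 or 4 of WT(ND), 1, 3 or 4 of *Glis3*-Pax8Cre(ND), 1, 3 or 4 of WT(LID) and 3 or 4 of *Glis3*-Pax8Cre(LID), with values from 0.43 (without *Glis3*-Pax8Cre(LID) replicate 3) to 0.62.

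*Igf2r* (chr17:12682406-12769706, minus strand), the clearance receptor for IGF2, rose with the diet in both genotypes. WT mice had 123, 94.8, 96.7 and 127 CPM on ND and 166, 229.5, 216 and 182 CPM under LID. In *Glis3*-Pax8Cre mice it was at 83.6, 122, 121 and 123 CPM on ND and at 152, 154, 234 and 168 CPM under LID. Every LID mouse lay above every ND mouse. The log2 change was 0.84 ± 0.17 in WT mice (adjusted p = 0.000827) and 0.65 ± 0.17 in *Glis3*-Pax8Cre mice (adjusted p = 0.00974), both by edgeR, and the difference between them was -0.19 ± 0.23 (adjusted p = 0.654). The genotypes differed by 0.03 ± 0.17 on ND and -0.17 ± 0.16 under LID, and neither passed. The antisense transcript *Airn* overlaps *Igf2r* and had 2.66 to 5.52 CPM as its own entry, and reads of the overlap cannot be told apart.

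The binding protein genes moved in opposite directions, with *Igfbp5* raised and *Igfbp6* and *Igfbp7* lowered in *Glis3*-Pax8Cre mice under LID. The bases just before the start of 3 of them are shown, *Igfbp5* and *Igfbp7* because they moved apart most and *Igfbp3* because it holds letters of the GLIS core motif. They are 250 bases upstream of the start in the RefSeq table of GRCm38.p6, the build of the files, 5′ to 3′ on the strand of the gene, and capitals mark a motif match.
Igfbp5 (chr1:72874866-72875115, minus strand): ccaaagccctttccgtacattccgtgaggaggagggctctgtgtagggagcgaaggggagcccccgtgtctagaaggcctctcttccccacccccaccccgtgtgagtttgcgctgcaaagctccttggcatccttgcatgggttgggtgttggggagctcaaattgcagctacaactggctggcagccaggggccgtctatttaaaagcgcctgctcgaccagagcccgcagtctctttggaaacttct
Igfbp7 (chr5:77408046-77408295, minus strand): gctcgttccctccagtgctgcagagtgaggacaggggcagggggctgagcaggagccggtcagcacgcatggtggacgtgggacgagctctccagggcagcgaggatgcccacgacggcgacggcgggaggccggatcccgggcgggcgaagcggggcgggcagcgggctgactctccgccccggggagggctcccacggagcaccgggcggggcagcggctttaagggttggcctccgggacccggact
Igfbp3 (chr11:7213924-7214173, minus strand): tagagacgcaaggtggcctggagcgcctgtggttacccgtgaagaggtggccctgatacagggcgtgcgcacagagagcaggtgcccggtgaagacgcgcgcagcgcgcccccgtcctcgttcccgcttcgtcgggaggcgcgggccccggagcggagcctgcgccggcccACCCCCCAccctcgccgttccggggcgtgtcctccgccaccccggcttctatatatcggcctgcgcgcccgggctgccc

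All 10 genes had an entry in that table, in 14 windows of 300 bases that reach 50 bases past the start, and 4 motifs were searched on both strands. The GLIS core TGGGGGGT was in 1.53% of all 32851 windows, the cyclic AMP response element core TGACG in 20.8%, TATAAA in 13.6% and the FOXO site TGTTTAC in 3.65%. *Igfbp3* held the GLIS core on the other strand, written ACCCCCCA, from position -79. One of the 4 windows of *Igf2* held it at -55. *Igf2r* held the TGACG core at -200, -51 and -3, *Igf2* windows held it at -189 and +6, *Igfbp4* held TATAAA at -28 and *Igfbp6* held it on the other strand at -148. None of these letters was found in the windows of *Igf1*, *Igf1r*, *Igfbp2*, *Igfbp5* and *Igfbp7*. The upstream bases of the *Igf1* window, chr10:87860861-87861110, lie inside the counted gene, which starts at 87858265. The bases before that start were not searched. The neighbours *Igfbp2* and *Igfbp5* lie 5593 bases apart on chromosome 1.

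*Igfbp5* (chr1:72858065-72874865, minus strand), whose product also binds the extracellular matrix, showed the largest genotype difference of the set. Under LID the 4 WT mice had 332, 332, 311 and 314 CPM, and the 4 *Glis3*-Pax8Cre mice 1162, 1182, 1542 and 1321 CPM. On ND the WT mice had 352, 355, 535 and 334 CPM and the *Glis3*-Pax8Cre mice 656, 805, 866 and 387 CPM. The genotypes did not overlap under LID. On ND they overlapped through WT(ND) replicate 3 and *Glis3*-Pax8Cre(ND) replicate 4.

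The log2 fold change of *Igfbp5* between genotypes was 2.01 ± 0.21 under LID (adjusted p = 5.19e-06) and 0.78 ± 0.21 on ND (adjusted p = 0.0153) in edgeR's test. Without those 2 ND mice, the ND value was 1.17 ± 0.12. It missed the threshold in 3 of 27 alternatives, with adjusted p from 7.23e-06 to 0.0816, among them those without WT(ND) replicate 4 (0.72) and without *Glis3*-Pax8Cre(ND) replicate 3 (0.64). The diet raised *Igfbp5* in *Glis3*-Pax8Cre mice by 0.94 ± 0.21 (adjusted p = 0.00408), and in WT mice the value was -0.29 ± 0.20 (adjusted p = 0.276). This difference in diet effect was 1.23 ± 0.29 (adjusted p = 0.0120, edgeR), and it passed in all 26 alternatives, with values from 0.84 to 1.37. The ratio of *Igfbp5* to the summed endothelial markers was 0.543 to 0.817 (WT) and 0.583 to 1.13 (*Glis3*-Pax8Cre) on ND, and 0.199 to 0.238 (WT) and 1.55 to 2.13 (*Glis3*-Pax8Cre) under LID, where the genotypes were apart.

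*Igfbp7* (chr5:77349240-77408045, minus strand) encodes a secreted binding protein with low affinity for IGFs that is abundant in blood vessels. In WT mice it was at 153, 173, 217 and 184 CPM on ND and at 462, 437, 477 and 519.9 CPM under LID. In *Glis3*-Pax8Cre mice the values were 245, 305, 244 and 171 CPM on ND and 201, 341, 215 and 181 CPM under LID. WT(LID) mice were all above every mouse of the other 3 groups, which overlapped. The LID raised it by 1.38 ± 0.19 in WT mice (adjusted p = 4.92e-05) and the value in *Glis3*-Pax8Cre mice was -0.04 ± 0.19 (adjusted p = 0.897). Under LID it was lower in *Glis3*-Pax8Cre mice by a log2 fold change of -1.01 ± 0.19 (adjusted p = 0.000892), and on ND the difference was 0.41 ± 0.19 (adjusted p = 0.148). Without *Glis3*-Pax8Cre(ND) replicate 4 the ND difference was 0.55 ± 0.18 and passed (adjusted p = 0.0477, where the range over 27 alternatives was 0.0231 to 0.35). With a fibroblast marker score as a covariate it was 0.71 and also passed (adjusted p = 0.0448). The interaction was -1.42 ± 0.27 (adjusted p = 0.00302), and it passed in all 26 alternatives, with values from -1.67 to -1.29. All p are from edgeR.

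Endothelial markers moved with *Igfbp7*. Of 6 markers, all 6 rose with the LID in WT mice, 5 were lower in *Glis3*-Pax8Cre mice under LID, and all 6 had a negative interaction. Between genotypes on ND, 2 were higher in *Glis3*-Pax8Cre mice. Their summed level went from 521–655 CPM on ND to 1393–1565 CPM under LID in WT mice, and was 665–938 and 619.8–784 CPM in *Glis3*-Pax8Cre mice. The ratio of *Igfbp7* to this sum was 0.311 ± 0.0249 (SD, n = 4) on ND and 0.325 ± 0.0201 under LID in WT mice, and 0.313 ± 0.0397 and 0.334 ± 0.0781 in *Glis3*-Pax8Cre mice, and the ranges of the 4 groups overlapped. Pericyte and smooth muscle markers moved likewise, with 6 of 7 raised by the LID in WT mice and 6 of 7 lower in *Glis3*-Pax8Cre mice under LID, and the mean ratio to their sum was 0.371 and 0.367 in WT and 0.373 and 0.358 in *Glis3*-Pax8Cre mice on ND and LID. The part of blood vessel cells in the *Igfbp7* result was not tested further. *Igfbp7* overlaps *Polr2b*, and reads of the overlap cannot be told apart.

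**Figure D3:**
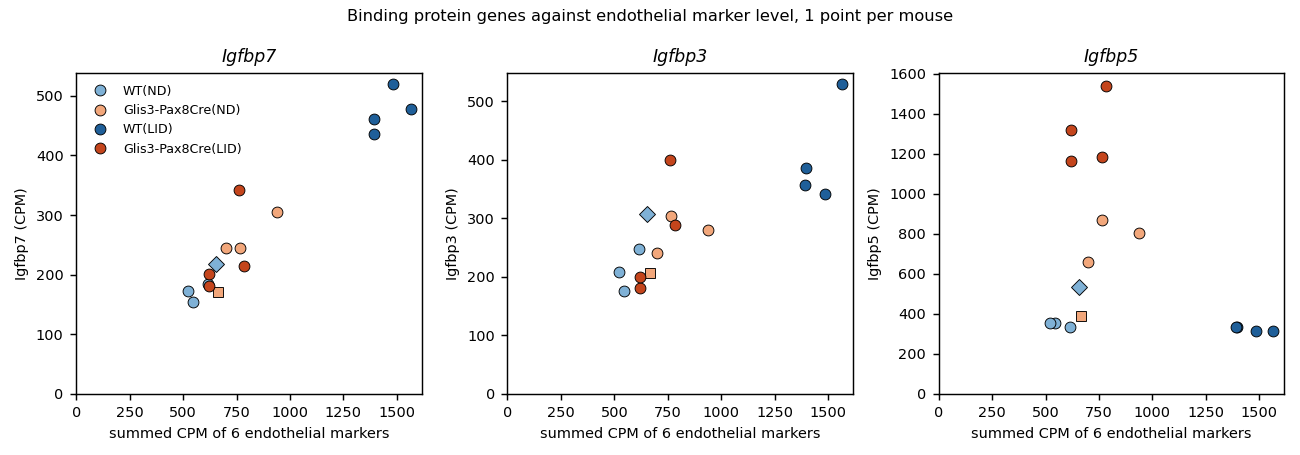
Level of *Igfbp7*, *Igfbp3* and *Igfbp5* (vertical axes, CPM) against the summed CPM of 6 endothelial markers (horizontal axes), 1 point per mouse, coloured by group, with WT(ND) replicate 3 as a diamond and *Glis3*-Pax8Cre(ND) replicate 4 as a square. The group mean ratios of *Igfbp7* to the markers were 0.311 to 0.334. Single mice ranged from 0.257 in *Glis3*-Pax8Cre(ND) to 0.448 in *Glis3*-Pax8Cre(LID). *Igfbp5* is highest in *Glis3*-Pax8Cre(LID) mice, which had 619.8 to 784 CPM of the markers.

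*Igfbp3* (chr11:7206091-7213923, minus strand), the main carrier of IGFs in blood, had 175, 208, 307 and 247 CPM in WT mice on ND and 385, 356, 530.4 and 342 CPM under LID. All WT(LID) mice lay above all WT(ND) mice, and the log2 change was 0.78 ± 0.24 (adjusted p = 0.0163, edgeR). It missed the threshold in 3 of 27 alternatives (adjusted p from 0.00355 to 0.0572), among them those without WT(ND) replicate 1, at 0.67, and without WT(LID) replicate 3, at 0.63. In *Glis3*-Pax8Cre mice it had 240.3, 280.4, 304 and 207 CPM on ND and 181, 399.7, 288 and 199.7 CPM under LID, a change of 0.05 ± 0.24. The interaction was -0.73 ± 0.34 and did not pass (adjusted p = 0.181), nor did the genotype difference under LID of -0.59 ± 0.24 (adjusted p = 0.0743). Without *Glis3*-Pax8Cre(LID) replicate 2, the highest of its group, both passed, at -0.99 ± 0.30 (adjusted p = 0.0455) and -0.85 ± 0.22 (adjusted p = 0.0102), where the ranges over alternatives were 0.0455 to 0.321 and 0.0102 to 0.287. The genotype difference also passed with DESeq2 (-0.59, adjusted p = 0.0443) and with a replicate block in 16 mice (-0.62, adjusted p = 0.0238, edgeR). Skeletal muscle markers summed to 834 CPM in *Glis3*-Pax8Cre(LID) replicate 2 and 1004 CPM in WT(LID) replicate 3, and their part was not tested. The mean ratio of *Igfbp3* to the endothelial markers was 0.398 and 0.275 in WT and 0.338 and 0.376 in *Glis3*-Pax8Cre mice on ND and LID.

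*Igfbp6* (chr15:102144186-102149512, plus strand), which prefers IGF2, was lower in *Glis3*-Pax8Cre mice under LID. Under LID, WT mice had 14.0, 9.20, 8.59 and 14.6 CPM and *Glis3*-Pax8Cre mice 6.73, 8.43, 7.07 and 5.11 CPM, so the lowest WT mouse lay just above the highest *Glis3*-Pax8Cre mouse. The log2 fold change was -0.76 ± 0.22 (adjusted p = 0.0152, edgeR). On ND it was -0.63 ± 0.22 and did not pass (adjusted p = 0.0581), with 8.43 to 10.6 CPM in WT and 4.23 to 8.59 CPM in *Glis3*-Pax8Cre mice. Without *Glis3*-Pax8Cre(ND) replicate 1 it was -0.83 ± 0.21 and passed (adjusted p = 0.0164, where the range over 27 alternatives was 0.0164 to 0.729). It also passed with DESeq2 (-0.62, adjusted p = 0.0269) and with a thymocyte marker score as a covariate (-0.64, adjusted p = 0.0176, edgeR).

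Fibroblast markers differed between genotypes in the direction of *Igfbp6*. Of 8 markers, 4 were lower in *Glis3*-Pax8Cre mice under LID and 2 on ND, and their sum under LID was 2326 to 2776 CPM in WT against 891 to 1592 CPM in *Glis3*-Pax8Cre mice. With the diet in WT mice, 3 markers were higher and 2 lower, and their sum was 1037 to 1396 CPM on ND. The mean ratio of *Igfbp6* to this sum was 0.00800 on ND and 0.00451 under LID in WT mice, and 0.00722 and 0.00520 in *Glis3*-Pax8Cre mice. With a fibroblast score as a covariate the LID difference of *Igfbp6* was -0.12 (adjusted p = 0.638, where the range over 27 alternatives was 0.00302 to 0.638). The call was also lost without WT(LID) replicate 1 (-0.66), without WT(LID) replicate 4 (-0.64) and without *Glis3*-Pax8Cre(LID) replicate 4 (-0.65). Because 4 of the 8 markers were themselves lower under LID, the score cannot tell fibroblast content and genotype apart. The part of fibroblasts in the *Igfbp6* difference was not tested.

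*Igfbp4* (chr11:99041260-99052643, plus strand), an inhibitory binding protein, varied little between groups. Its mean on ND was 109.6 ± 21.4 CPM (SD, n = 4) in WT and 112 ± 21.4 CPM in *Glis3*-Pax8Cre mice, and under LID 135 ± 10.6 and 109.8 ± 23.3 CPM. The ranges of the 4 groups overlapped, and none of the 4 comparisons or the interaction passed, with log2 values from -0.33 to 0.30. Without the 2 ND mice that stood apart, the WT diet value was 0.44 ± 0.15 and passed (adjusted p = 0.0247, where the range over 27 alternatives was 0.0247 to 0.693).

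*Igfbp2* (chr1:72824480-72852471, plus strand), a carrier abundant in fetal life, was near the lower end of what these libraries measure. WT mice had 0.0841, 0.0587, 0.240 and 0.148 CPM on ND and 0.626, 0.832, 0.539 and 1.48 CPM under LID. *Glis3*-Pax8Cre mice had 0.565, 0.176, 0.0901 and 0.714 CPM on ND and 1.09, 1.04, 0.990 and 1.37 CPM under LID. Each LID mouse lay above every ND mouse of its genotype. The log2 change with the diet was 2.68 ± 0.56 in WT mice (adjusted p = 0.00124) and 1.63 ± 0.54 in *Glis3*-Pax8Cre mice (adjusted p = 0.0380), by edgeR, and the second missed the threshold in 9 of 27 alternatives, with adjusted p from 0.00378 to 0.114. Of these 9, 7 left out 1 mouse, namely replicates 2 or 3 of *Glis3*-Pax8Cre(ND), replicate 2 of WT(LID) or any 1 of *Glis3*-Pax8Cre(LID), with values from 1.28 to 1.68. The *Glis3*-Pax8Cre(ND) mice held 5 to 40 read pairs. The ND genotype difference of 1.41 ± 0.57 did not pass (adjusted p = 0.0954), but passed without WT(ND) replicate 3 (1.77) and without *Glis3*-Pax8Cre(ND) replicate 3 (1.76), where the adjusted p over 26 alternatives was 0.037 to 0.543. With DESeq2 it was 1.45 and also passed (adjusted p = 0.0439). Without *Glis3*-Pax8Cre(ND) replicate 4 the ND difference was 0.69 ± 0.57 (adjusted p = 0.431, edgeR) and the diet value in *Glis3*-Pax8Cre mice 2.35 ± 0.56 (adjusted p = 0.00615, edgeR).

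Per length, the make-up of binding protein mRNA differed between the groups. *Igfbp7* made up 43.2% ± 1.55 (SD, n = 4) of the summed CPM per kb of the 6 genes in WT mice on ND and 59.6% ± 3.21 under LID, and 44.0% ± 2.79 and 34.4% ± 4.85 in *Glis3*-Pax8Cre mice. *Igfbp5* made up 18.7% ± 2.05 and 8.19% ± 0.821 in WT mice, and 24.5% ± 3.43 and 39.8% ± 7.74 in *Glis3*-Pax8Cre mice. These shares of *Igfbp5* under LID were 7.31% to 9.14% in WT and 28.6% to 45.8% in *Glis3*-Pax8Cre mice. *Igfbp3* ranged from 19.3% in *Glis3*-Pax8Cre(LID) to 27.4% in WT(ND), and *Igfbp4* and *Igfbp6* lay between 1.11% and 8.16%. The sum itself was 349.99 ± 64.3 CPM per kb on ND and 659 ± 44.5 under LID in WT mice, and 454 ± 97.5 and 557 ± 102 in *Glis3*-Pax8Cre mice. *Igfbp2* was at most 0.196% in any mouse.

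**Figure D4:**
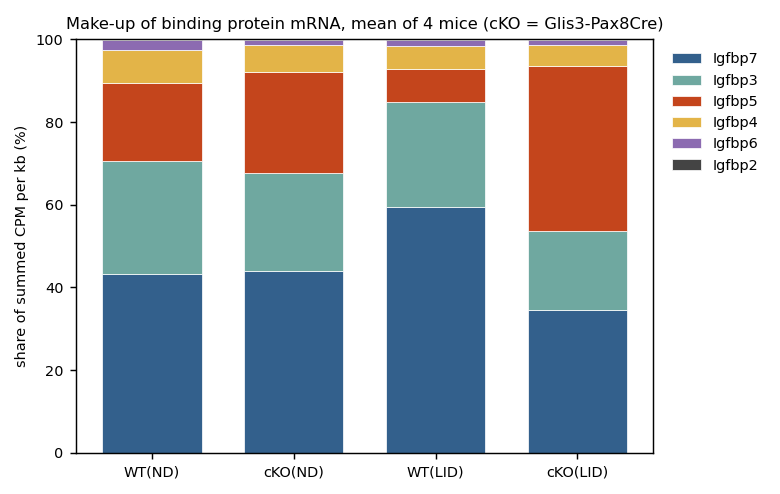
Make-up of binding protein mRNA in each group: the mean share (vertical axis, percent, stacked to 100) of each of 6 genes in their summed CPM per kb of exon, over 4 mice (cKO is *Glis3*-Pax8Cre). Under LID, *Igfbp5* takes 8.19% in WT and 39.8% in *Glis3*-Pax8Cre mice.

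The proteases that release IGFs from binding proteins, and their inhibitors, were among 22 other extracellular genes of the pathway, of which 17 were tested. Pappalysin 1, the product of *Pappa*, cuts IGFBP4 and IGFBP5. *Pappa* was at 18.3, 22.7, 10.8 and 14.4 CPM on ND and 21.4, 45.0, 39.2 and 29.1 CPM under LID in WT mice. In *Glis3*-Pax8Cre mice it was at 16.4, 13.5, 10.4 and 15.2 CPM on ND and 78.3, 57.6, 113 and 71.5 CPM under LID. All *Glis3*-Pax8Cre(LID) mice lay above all mice of the other groups. The diet raised it by 2.54 ± 0.28 on the log2 scale in *Glis3*-Pax8Cre mice and by 1.03 ± 0.27 in WT mice, with an interaction of 1.51 ± 0.38 (adjusted p = 0.0187, edgeR). *Pappa2*, which cuts IGFBP3 and IGFBP5, rose with the diet in both genotypes, by 1.49 ± 0.23 in WT and 1.18 ± 0.23 in *Glis3*-Pax8Cre mice.

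Stanniocalcins inhibit pappalysins, and their 2 genes changed in opposite directions. Under LID, *Stc1* was at 55.1, 69.8, 83.7 and 71.0 CPM in WT mice and at 25.0, 39.9, 34.2 and 31.0 CPM in *Glis3*-Pax8Cre mice, without overlap, and its interaction was -1.76 ± 0.28 (adjusted p = 0.000893, edgeR). *Stc2* had 11.2, 10.2, 11.1 and 10.1 CPM in the WT and 15.4, 15.03, 16.5 and 15.7 CPM in the *Glis3*-Pax8Cre mice, also without overlap, and its interaction was 1.37 ± 0.19 (adjusted p = 0.000218). On ND, *Stc2* was lower in *Glis3*-Pax8Cre mice by -0.81 ± 0.13 on the log2 scale.

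**Figure D5:**
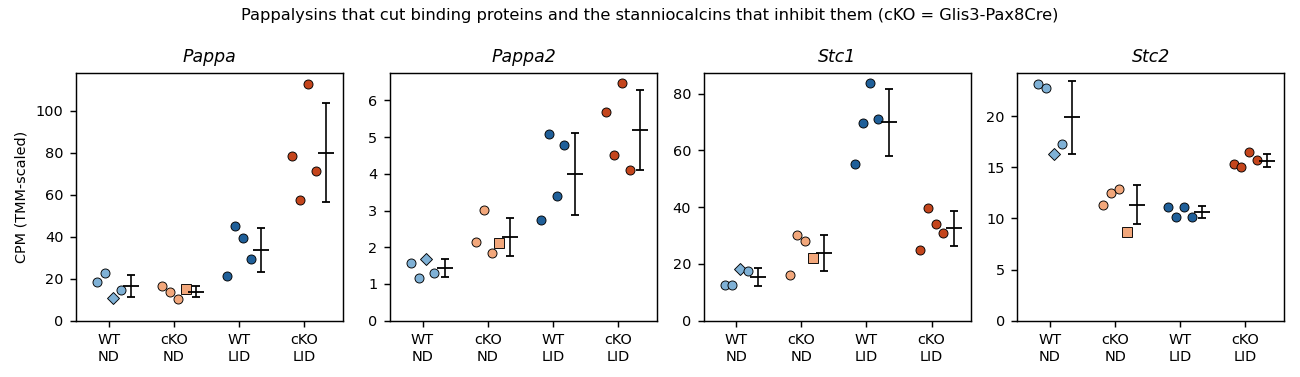
Levels in CPM (vertical axes, each starting at 0) of 2 pappalysin genes and 2 stanniocalcin genes in 16 mice by group (cKO is *Glis3*-Pax8Cre), with the mean ± SD of 4 mice beside the points. *Pappa* is highest in the 4 *Glis3*-Pax8Cre(LID) mice, at 57.6 to 113 CPM, and *Stc1* in the 4 WT(LID) mice, at 55.1 to 83.7 CPM.

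Over the 17 other extracellular genes, the LID raised 9 and lowered 4 in WT mice, and raised 5 and lowered 2 in *Glis3*-Pax8Cre mice. The genotype effect was 2 higher and 4 lower on ND, and 3 higher and 7 lower under LID, with 2 positive and 3 negative interactions. Of all genes, 41.7%, 25.4%, 19.6%, 30.2% and 11.8% were called in these 5 comparisons. The matricellular genes of the CCN family, which carry an IGF binding domain of low affinity, held some of the largest changes of the 17. *Wisp1* was lower in *Glis3*-Pax8Cre mice on both diets, by -2.58 ± 0.22 on ND and -2.89 ± 0.22 under LID. *Wisp2* rose with the LID in WT mice by 2.59 ± 0.20 and was lower in *Glis3*-Pax8Cre mice under LID by -2.41 ± 0.20, and *Cyr61* by -1.64 ± 0.38. *Ctgf* rose with the diet in *Glis3*-Pax8Cre mice by 2.54 ± 0.36. Of hormone receptors, *Insrr*, an orphan receptor of the insulin receptor family, was lower in *Glis3*-Pax8Cre(ND) than in WT(ND) by -1.45 ± 0.22, and *Ghr*, the growth hormone receptor gene, was higher under LID by 0.40 ± 0.14. *Igfals*, the acid-labile subunit of the circulating IGF complex, was lower on ND, at 2.98 ± 0.602 CPM (SD, n = 4) in *Glis3*-Pax8Cre mice against 5.96 ± 1.16 CPM in WT mice.

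Inside the cell, 48 genes of insulin and IGF signalling were followed from receptor substrates to mTOR and FOXO. The LID raised 7 and lowered 11 in WT mice, and raised 6 and lowered 8 in *Glis3*-Pax8Cre mice. Between genotypes, 2 were higher and 8 lower on ND, and 8 were higher and 8 lower under LID, with 3 positive and 1 negative interactions, and the shares of all genes called are those given for the extracellular genes. The median log2 fold change stayed between -0.07 and 0.02. The substrate gene *Irs1* fell with the LID in WT mice, at -1.31 ± 0.16, and in *Glis3*-Pax8Cre mice, at -0.65 ± 0.16. *Irs2* was higher in *Glis3*-Pax8Cre mice under LID by 1.05 ± 0.31, and *Foxo4* by 1.02 ± 0.10, while *Grb10*, an adaptor that dampens both receptors, was lower by -1.32 ± 0.20. *Ptpn1*, a phosphatase that acts on both receptors, rose with the LID by 1.35 ± 0.15 in WT and 0.77 ± 0.15 in *Glis3*-Pax8Cre mice, and *Socs2*, an inhibitor of growth hormone signalling, fell by 0.90 ± 0.30 and 1.41 ± 0.31.

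Of 20 imprinted growth genes, 18 were tested, *Igf2* and *Igf2r* among them. The LID raised 4 and lowered 4 in WT mice and raised 3 and lowered 2 in *Glis3*-Pax8Cre mice. The genotype effect was 2 higher and 3 lower on ND and 5 higher and 1 lower under LID, where the median of the 18 was -0.14, with 3 positive interactions, beside the same shares of all genes. *Mest*, expressed from the paternal allele, had the largest of these genotype differences under LID, with 698, 588, 665 and 1063 CPM in *Glis3*-Pax8Cre mice against 118 to 144 CPM in WT mice (2.52 ± 0.21 on the log2 scale). *Cdkn1c*, a cell cycle inhibitor, was higher by 1.10 ± 0.18 and *Phlda2* by 0.92 ± 0.22 in the same comparison.

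The 10 genes did not vary as 1 unit over the 16 mice. Described by the Pearson correlation of log2 CPM, with libraries, groups and depths shared by all points, *Igf1* and *Igfbp5* gave 0.84 over 16 mice and 0.63 after group means were removed. WT(ND) replicate 3 lay far above its group in both genes, and the value without it was not computed. *Igf1r* and *Igf2r* gave 0.55 and 0.88, *Igfbp3* and *Igfbp7* 0.86 and 0.77, *Igfbp4* and *Igfbp7* 0.78 and 0.87, and *Igf2* and *Igfbp6* 0.81 and 0.75. *Igfbp5* and *Igfbp7*, which moved apart under LID, gave -0.28 over 16 mice and 0.49 within groups. Among 11675 genes with a mean of at least 5 CPM, the closest to *Igf1* were *Pid1*, *Emb* and *Hdac2* (0.98, 0.98 and 0.98), to *Igfbp5* *Alcam*, *Epha1* and *Sostdc1* (0.97 each) and to *Igf1r* *Man2a1*, *Il1rap* and *Scap* (0.96, 0.96 and 0.94). The values for closest genes are over 16 mice and include group differences. Within groups, those for *Igf1r* were 0.68, 0.61 and 0.22, and those for the other members 0.665 to 0.956. Those for *Igf1* (0.924 to 0.956) and *Igfbp5* include WT(ND) replicate 3, far above its group in both genes, and were not computed without it. The closest to *Igfbp7* were *Cmtm3*, *Plvap* and *Esam* (0.99, 0.98 and 0.98) and to *Igfbp3* *Robo4*, *Inhbb* and *Cdc42ep2* (0.92, 0.91 and 0.89). The closest to *Igf2r* were *Brip1os*, *Sidt2* and *Ccdc6* (0.94 each) and to *Igfbp2* *Kif18a*, *Arf6* and *Ksr1* (0.92 each). For *Igf2* they were *Pcolce2*, *Pi16* and *Islr* (0.89, 0.87 and 0.86), for *Igfbp4* *Selenom*, *Marc2* and *Lmo2* (0.89, 0.86 and 0.85), and for *Igfbp6* *Gpx8*, *Gpx4* and *Pi16* (0.94, 0.94 and 0.92).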

How the data were processed

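Per the labels and the methods of the study, the authors aligned paired reads with a base quality above 20 to mm10 with STAR 2.5 and assigned the pairs to RefSeq genes with featureCounts 1.5.0-p1, without regard to strand. The deposited table holds these raw counts, 1 column per mouse. Here, entries passing edgeR's filterByExpr were scaled by TMM, and 1 model of 4 groups, in which all 16 mice share the estimate of spread, was fitted with edgeR 4.0.16 (glmQLFit, glmQLFTest) in R 4.3.3, with Benjamini-Hochberg adjustment over 16630 entries. The steps were tested on simulated data. CPM per kb used exon lengths from GENCODE mouse release M21. The p-values cover the spread between these mice alone.

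The members, lists and tests were chosen with earlier results of these data known. All 10 members were named in every comparison, each with its 3 most correlated genes, and the other lists gave up to 3 called genes a direction. *Stc1* under LID, the pair *Igfbp5* and *Igfbp7*, and all values of pappalysin, stanniocalcin, *Irs1*, *Wisp1* and *Insrr* genes outside that rule were chosen after they were seen. None of the 24 pairs of libraries within a group agreed within sampling noise. The deviations of same-numbered *Glis3*-Pax8Cre mice from their group means correlated at 0.21 to 0.65 over 4 pairs. The labels name no pairs and mice of unlike number were not compared, so a pairing was not established. The main model held no replicate term, and a replicate block was an alternative. In the other comparisons the correlation was -0.52 to 0.14. Alternatives were RLE scaling, library size alone, *Tg* left out, no filter, at least 10 counts in every mouse, DESeq2 1.42.0, only the 8 mice compared, a replicate block, thymocyte or fibroblast scores as covariates, stricter thresholds and each mouse left out. The values of 1 gene of the signalling list are not reported here.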

Additional observations from a re-analysis of the deposited data

Results flagged for a closer look

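In 4 of 40 groups of 4 mice (10 genes in 4 groups), 1 mouse lay far from the other 3 by Dixon's criterion, where chance gives about 1 in 20. *Igf1* was at 181.4 CPM in WT(ND) replicate 3, and *Igfbp5* was at 535 CPM in the same mouse, the one that lay between the genotypes. *Igf1r* was at 288.4 CPM in *Glis3*-Pax8Cre(LID) replicate 3. *Igf2r* was at 83.56 CPM in *Glis3*-Pax8Cre(ND) replicate 1, the library with the fewest counts (13892352) and the highest sum of skeletal muscle markers (1246 CPM).

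The effect of the diet differed between the genotypes for 3 genes, by the interaction term of edgeR's quasi-likelihood test. On the log2 scale the difference was 0.59 for *Igf1r*, 1.23 for *Igfbp5* and -1.42 for *Igfbp7*, with adjusted p of 0.0404, 0.0120 and 0.00302.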

How the results depend on the processing

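Under the alternatives, 1242 values for single genes kept their direction and their side of the threshold, 21 passed it newly, 32 lost it and 50, none of them called at first, changed sign, of which 3, all of *Igf1*, then passed the threshold. The numbers of genes called were 2, 0, 1, 3 and 1 under the stricter thresholds (order of comparisons as in the report), 3 to 5, 3 to 4, 2 to 3, 4 to 6 and 2 to 4 with 1 mouse left out, and, for the genotype on ND, 5 with DESeq2 and 1 with only the 8 mice compared. Without both ND mice that stood apart, an alternative chosen after seeing the data, they were 6, 4, 3, 5 and 4. Library size alone shifted the median of all genes by -0.16, -0.13, 0.12, 0.15 and 0.02. *Igfbp2* could not be tested with at least 10 counts in every mouse. Where values changed, the cause was not tested, and 4 mice a group limit what small differences can show.

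With a replicate block in the 8 *Glis3*-Pax8Cre mice, the 4 diet calls were kept (*Igf1r* 0.82, *Igfbp5* 0.98), *Igf1* was 0.0048 and *Igfbp3* -0.012. With a replicate block in all 16 mice, 4, 4, 2, 7 and 2 genes were called, *Igf2* (-0.44) and *Igfbp3* (-0.62) passed under LID, the *Igf1r* interaction missed the threshold (adjusted p = 0.0555), and *Igf1* was 0.11 (diet, WT), 0.035 (diet, *Glis3*-Pax8Cre) and -0.071 (interaction).

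With the fibroblast score as a covariate, the sign changed for *Igf1* (0.033), *Igf2* (-0.16) and *Igfbp6* (-0.051) for the diet in WT mice, *Igf1* (0.037), *Igfbp3* (-0.0062) and *Igfbp6* (-0.061) for the diet in *Glis3*-Pax8Cre mice, *Igf2* (0.18) and *Igf2r* (-0.20) for the genotype on ND, and *Igf2* (0.11), *Igfbp2* (-0.25) and *Igfbp4* (0.073) for the genotype under LID. With library size alone it changed for *Igf2* (-0.036, diet, WT) and *Igfbp3* (-0.077, diet, *Glis3*-Pax8Cre). Without both ND mice it changed for *Igf1* (0.57, diet, WT, and -0.68, interaction), *Igfbp3* (-0.047, diet, *Glis3*-Pax8Cre) and *Igf2r* (-0.068, genotype on ND).

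With 1 mouse left out, the sign was not fixed for the diet in WT mice for *Igf1* (-0.25 to 0.57), nor in *Glis3*-Pax8Cre mice for *Igf1* (-0.10 to 0.18), *Igf2* (-0.20 to 0.12), *Igfbp3* (-0.21 to 0.20), *Igfbp4* (-0.16 to 0.082) and *Igfbp7* (-0.28 to 0.10). It was not fixed either for the genotype on ND for *Igf2r* (-0.041 to 0.14) and *Igfbp4* (-0.059 to 0.17), or for the interaction for *Igf1* (-0.60 to 0.23) and *Igfbp6* (-0.29 to 0.064).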
